A study of Homo sapiens with 10 samples.

Results

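The regions described here belong to 58 genes of the cell cycle and of DNA replication. The genes were chosen by name from what they are known to do, with earlier results of these data known. Their regions are the rows of the annotated count table that carry one of these symbols. The table assigned 166 of its 67387 regions to 56 of the 58 genes, and none to AURKA or KIF23. Of these 166 regions, 111 lay within 1 kb of a transcription start site (TSS) and are called promoter regions, 7 lay 1 to 3 kb from one, and 48 were non-promoter regions of 17 genes: 26 distal intergenic, 12 intronic, 5 in a 3′ UTR, 3 exonic and 2 just downstream of a gene. Every gene with a region had a promoter region: 21 genes had 1, 21 had 2, 9 had 3, 4 had 4, and RRM2 had 5. A distance to the TSS is to the transcript start that the annotation assigned, which need not be the main start of the gene.

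H3K27ac, the acetylation of lysine 27 on histone H3, marks active promoters and enhancers, and was measured by ChIP-seq in H1975, a human lung adenocarcinoma line whose growth depends on mutant EGFR. Proliferating cells switch these genes on in sequence: E2F transcription factors drive the genes of replication at the entry into S phase, and the MuvB complex with MYBL2 and FOXM1 drives the mitotic genes later. In cells that leave the cycle, repressor complexes take these places at the same promoters, through E2F sites or through the cell cycle homology region (CHR) that many mitotic promoters carry beside CCAAT boxes.

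DMSO control cells had 21 days of drug-free culture followed by 3 days in DMSO. Osimertinib DTP (drug-tolerant persister) cells were those left after 24 days of osimertinib at 500 nM, a drug that blocks mutant EGFR. Osimertinib DTP + AZD5153 cells received 500 nM osimertinib for 21 days and then 150 nM AZD5153, a bivalent BET bromodomain inhibitor, for 3 days, and the labels do not say whether osimertinib was kept on during those days. Each group had 3 libraries from biological replicates of this line, and 1 pooled input was sequenced. Libraries held 6263443 to 10463351 counts over all regions, and the input 1870885.

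A pair of libraries stood apart. Promoter regions took 50.8% of all counts in osimertinib DTP replicate 2 and 52.9% in osimertinib DTP + AZD5153 replicate 3, against 29.3% to 34.8% in the other 7. The latter also correlated less with its own replicates (Spearman coefficients 0.430 and 0.354) than any other replicate pair (0.818 to 0.898). The set as a whole is therefore given with all 9 libraries and again without 1 or both of these. Single genes are given with all 9 libraries, and only some of them again without 1 or both. Promoter regions of all 6 epithelial genes checked were present, with the highest region of each gene spanning these percentiles of all promoter regions over the libraries: 97.9 to 99.9 for KRT8, 88.6 to 99.97 for KRT7, 73.7 to 99.0 for EPCAM, 57.9 to 94.7 for KRT19, 23.0 to 77.2 for KRT18 and 13.7 to 78.3 for CDH1. Of 6 genes of other cell types, PTPRC, CD3E and PECAM1 had no promoter region and COL1A1 (18.5 to 79.2), COL1A2 (1.58 to 71.0) and CDH5 (35.9 to 90.6) had some, reaching as high as CDH1 and KRT18. The signal of a library is a mean over its cells, so fewer cells carrying the mark and less mark per cell cannot be told apart, and without a spike-in the values are relative to the rest of the library.

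Promoter sequence is shown for 9 genes because it is the ground on which the counted reads lie and holds the motifs named above. The windows run from 200 bases before to 30 bases after a RefSeq start (assembly GRCh38.p14, 5′ to 3′ on the strand of the gene). The first 8 are genes with low values after treatment in the results that follow, and MCM6 is shown because its lead promoter region, described further on, differed from DMSO by less than its SE and its window holds the most E2F matches of those shown. They are CDC25C (chr5:138331775-138332004, minus strand), TK1 (chr17:78187023-78187252, minus strand), TYMS (chr18:657453-657682, plus strand), RRM2 (chr2:10122539-10122768, plus strand), TOP2A (chr17:40417867-40418096, minus strand), PLK1 (chr16:23678689-23678918, plus strand), MKI67 (chr10:128126394-128126623, minus strand), GINS2 (chr16:85688925-85689154, minus strand) and MCM6 (chr2:135876414-135876643, minus strand). The windows of PLK1 and RRM2 do not overlap the lead promoter regions of these genes, which lie further inside and further upstream. Capitals mark 3 motifs searched on both strands: the CHR (TTTGAA), the CCAAT box (CCAAT) and the E2F site (TTTCCCGC, TTTCGCGC, TTTGCCGC or TTTGGCGC).
CDC25C: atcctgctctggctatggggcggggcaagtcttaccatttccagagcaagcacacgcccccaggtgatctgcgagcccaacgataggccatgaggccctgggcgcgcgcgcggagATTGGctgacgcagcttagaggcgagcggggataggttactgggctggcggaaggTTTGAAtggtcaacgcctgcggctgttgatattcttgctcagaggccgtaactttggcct
TK1: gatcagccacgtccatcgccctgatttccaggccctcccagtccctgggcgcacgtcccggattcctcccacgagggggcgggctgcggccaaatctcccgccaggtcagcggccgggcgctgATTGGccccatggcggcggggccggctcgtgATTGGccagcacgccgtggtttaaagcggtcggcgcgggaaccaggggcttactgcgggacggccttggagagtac
TYMS: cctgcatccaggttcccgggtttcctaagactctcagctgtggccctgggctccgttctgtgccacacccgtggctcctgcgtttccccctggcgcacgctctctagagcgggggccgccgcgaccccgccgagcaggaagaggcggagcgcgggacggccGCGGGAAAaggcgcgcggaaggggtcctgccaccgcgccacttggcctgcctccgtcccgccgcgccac
RRM2: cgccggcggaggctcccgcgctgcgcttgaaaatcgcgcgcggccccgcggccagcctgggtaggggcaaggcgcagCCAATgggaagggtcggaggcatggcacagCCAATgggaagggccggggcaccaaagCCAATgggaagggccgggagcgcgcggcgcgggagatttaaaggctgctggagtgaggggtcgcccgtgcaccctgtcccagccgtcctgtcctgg
TOP2A: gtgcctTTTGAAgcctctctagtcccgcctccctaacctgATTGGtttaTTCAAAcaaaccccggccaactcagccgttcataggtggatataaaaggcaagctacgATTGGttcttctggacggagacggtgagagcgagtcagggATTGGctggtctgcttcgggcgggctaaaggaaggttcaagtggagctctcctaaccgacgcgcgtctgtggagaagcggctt
PLK1: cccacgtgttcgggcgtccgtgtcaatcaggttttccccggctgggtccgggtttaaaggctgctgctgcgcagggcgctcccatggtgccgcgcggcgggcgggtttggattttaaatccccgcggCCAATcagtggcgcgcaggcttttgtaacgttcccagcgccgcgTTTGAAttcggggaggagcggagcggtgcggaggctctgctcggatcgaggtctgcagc
MKI67: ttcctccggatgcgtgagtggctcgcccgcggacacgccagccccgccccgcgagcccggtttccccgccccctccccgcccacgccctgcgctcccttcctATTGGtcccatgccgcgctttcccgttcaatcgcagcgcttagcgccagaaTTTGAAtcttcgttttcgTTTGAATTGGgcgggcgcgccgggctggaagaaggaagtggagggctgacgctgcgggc
GINS2: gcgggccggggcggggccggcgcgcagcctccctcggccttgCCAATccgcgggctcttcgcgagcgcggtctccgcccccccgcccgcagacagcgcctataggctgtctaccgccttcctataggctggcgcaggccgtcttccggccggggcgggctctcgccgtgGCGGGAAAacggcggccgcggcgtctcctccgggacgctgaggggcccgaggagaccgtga
MCM6: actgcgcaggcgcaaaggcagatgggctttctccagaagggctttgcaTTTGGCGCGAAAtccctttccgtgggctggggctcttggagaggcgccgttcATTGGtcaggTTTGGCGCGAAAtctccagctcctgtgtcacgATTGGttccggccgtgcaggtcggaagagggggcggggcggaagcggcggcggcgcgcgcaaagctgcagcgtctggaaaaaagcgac
CDC25C, PLK1, TOP2A and MKI67, which act in mitosis, each hold a CHR and at least 1 CCAAT box. TK1 and RRM2 hold CCAAT boxes alone, TYMS an E2F site alone, and GINS2 and MCM6 both E2F sites and CCAAT boxes. In MKI67 a CHR and a CCAAT box share letters, and in MCM6 2 pairs of E2F matches on opposite strands overlap. Over the full windows of RefSeq, 250 bases before to 50 after the start, 49 of the 58 genes had 66 windows (CCNE2, E2F8, CDK2, TTK, MCM5, FOXM1, BIRC5, AURKA and MCM4 had none). Of these windows, 30.3% held an E2F site, 68.2% a CCAAT box and 25.8% a CHR, where all 35116 windows of that length held them at 3.31%, 34.6% and 15.2%. A CHR and a CCAAT box stood together in 22.7% of the windows of these genes and in 5.90% of all. A match of letters describes the sequence only.

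Promoters of cell cycle and replication genes held a smaller part of the H3K27ac signal in both persister groups than in DMSO. Their 111 promoter regions took 0.491%, 0.542% and 0.539% of all promoter counts in the DMSO libraries. The osimertinib DTP libraries gave 0.292%, 0.280% and 0.233%, and those with AZD5153 0.295%, 0.263% and 0.246%. The means were 0.524% ± 0.028, 0.268% ± 0.031 and 0.268% ± 0.025 (SD, n = 3 each). Every treated library lay below every DMSO library, the 2 promoter-heavy ones included, and the treated groups overlapped each other.

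The same held for rank. For each gene the promoter region with the highest mean count over the 9 libraries was taken as its lead promoter region, and its count was ranked among the 24296 promoter regions of the same library. The median percentile of the 56 lead regions was 73.2, 77.3 and 75.1 for the DMSO libraries, 40.5, 49.2 and 23.5 for osimertinib DTP, and 38.1, 38.4 and 44.3 with AZD5153. The mean percentile in osimertinib DTP was below that in DMSO for 54 of 56 genes, against 49.1% of all promoter regions, with MAD2L1 and TTK above it. With AZD5153 it was below for 55 genes, against 50.4% of all, with TTK above it. All 3 osimertinib DTP libraries ranked below all 3 DMSO libraries at 77 of the 111 promoter regions (69.4%), in 48 genes, against 16.8% of all promoter regions, and the AZD5153 libraries did so at 66 (59.5%), in 42 genes, against 17.3%.

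**Figure D1:**
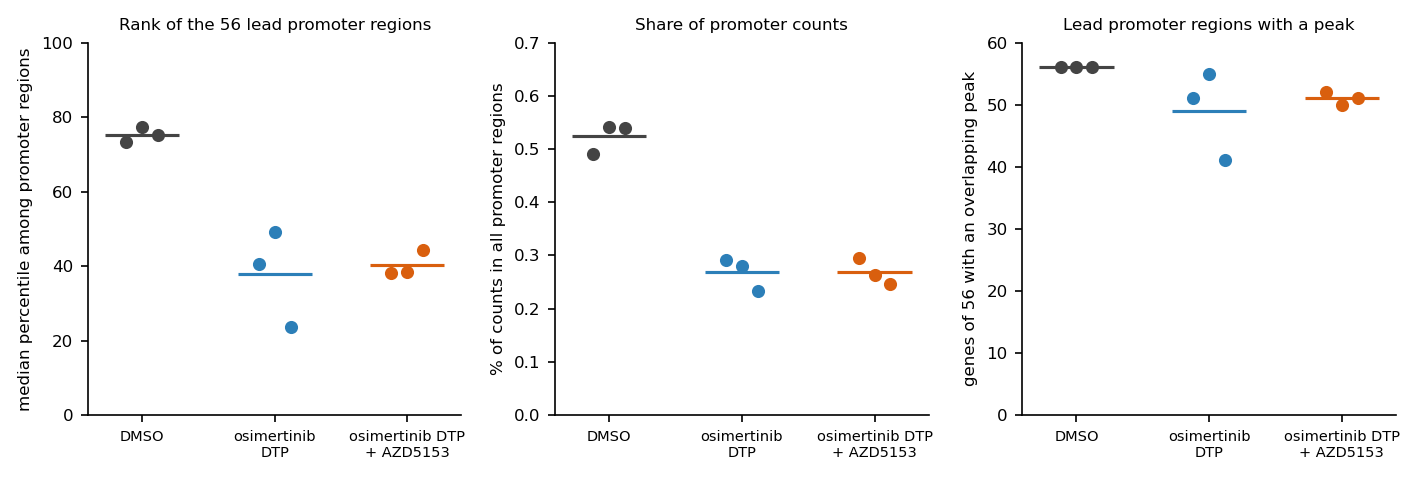
H3K27ac at the promoters of the 56 genes by group. Each point is 1 library and each line the mean of 3; from the left, the median percentile of the lead promoter regions among all promoter regions, the share of promoter counts in % taken by the 111 promoter regions, and the number of lead promoter regions that overlap a peak. In all 3 panels the DMSO libraries lie above all 6 treated libraries, and the treated groups overlap.

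The peak lists, deposited per library, were compared at the same regions. In each DMSO library a peak overlapped all 56 lead regions, while 51, 55 and 41 were overlapped in osimertinib DTP and 52, 50 and 51 with AZD5153. The identifiers in the list with 41, of osimertinib DTP replicate 3, name the line H1875 where the labels give H1975, and among the count columns this list matched its own best. Over all promoter regions the share with a peak was 89.2% to 92.1% in DMSO and 88.1% to 95.4% in the treated libraries. Peaks at the lead regions were also narrow in the treated libraries, with a median width of 631 to 1146 bp against 1188 to 1597 bp in DMSO, where peaks at all promoter regions ran from 1177 to 1250 bp in DMSO and 1226 to 1895 bp in treatment. Peaks persisted in all 9 libraries at 38 genes. They were fewest at TK1, which encodes thymidine kinase, and at MCM10, a replication initiation factor, each with a peak in all 3 DMSO libraries and in osimertinib DTP replicate 2 but in no other.

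The question of the first comparison is how the mark differs between persister cells and growing cells. Region by region, with all 9 libraries in the fit, 15 of the 166 regions (9.04%) passed an adjusted p of 0.05 in osimertinib DTP against DMSO, 10 higher and 5 lower, where 10.7% of all regions tested were called. At promoters a single region of 111 passed, in CDC25C, and this share of 0.901% lay below the 4.63% of all promoter regions called. Their median log2 fold change was −0.76 against 0.35 for all promoter regions, 87 of 111 were below 0, and at 41 (36.9%) all osimertinib DTP libraries lay below all DMSO libraries in CPM (read counts scaled to the TMM-normalised library total) against 9.31% of all promoter regions. The SE of a promoter region was 0.59 in the median on the log2 scale.

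The number of calls depended on the promoter-heavy libraries. Without osimertinib DTP + AZD5153 replicate 3, which is no sample of this comparison but enters the shared estimate of the spread, 58 regions (17 higher, 41 lower) passed, where 26.8% of all regions did. Of the promoter regions 28 then were lower (25.2%) against 5.12% of all promoter regions, and 1 was higher, near an inner start of CDK2, against 9.16%. Without both promoter-heavy libraries, 68 promoter regions were lower (61.3%) against 8.81% of all. The split also followed the scaling: calls higher and lower numbered 6 and 7 without TMM, 9 and 18 with a loess offset, and 1 and 4 with TMM taken from promoter regions. Of all regions 3.77% and 3.94%, 5.57% and 6.49%, and 0.799% and 0.957% were called higher and lower under these scalings. The median of all promoter regions moved between −0.18 and 0.65 over the settings tried, but the median of these genes stayed 1.06 to 1.20 below it in every one.

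**Figure D2:**
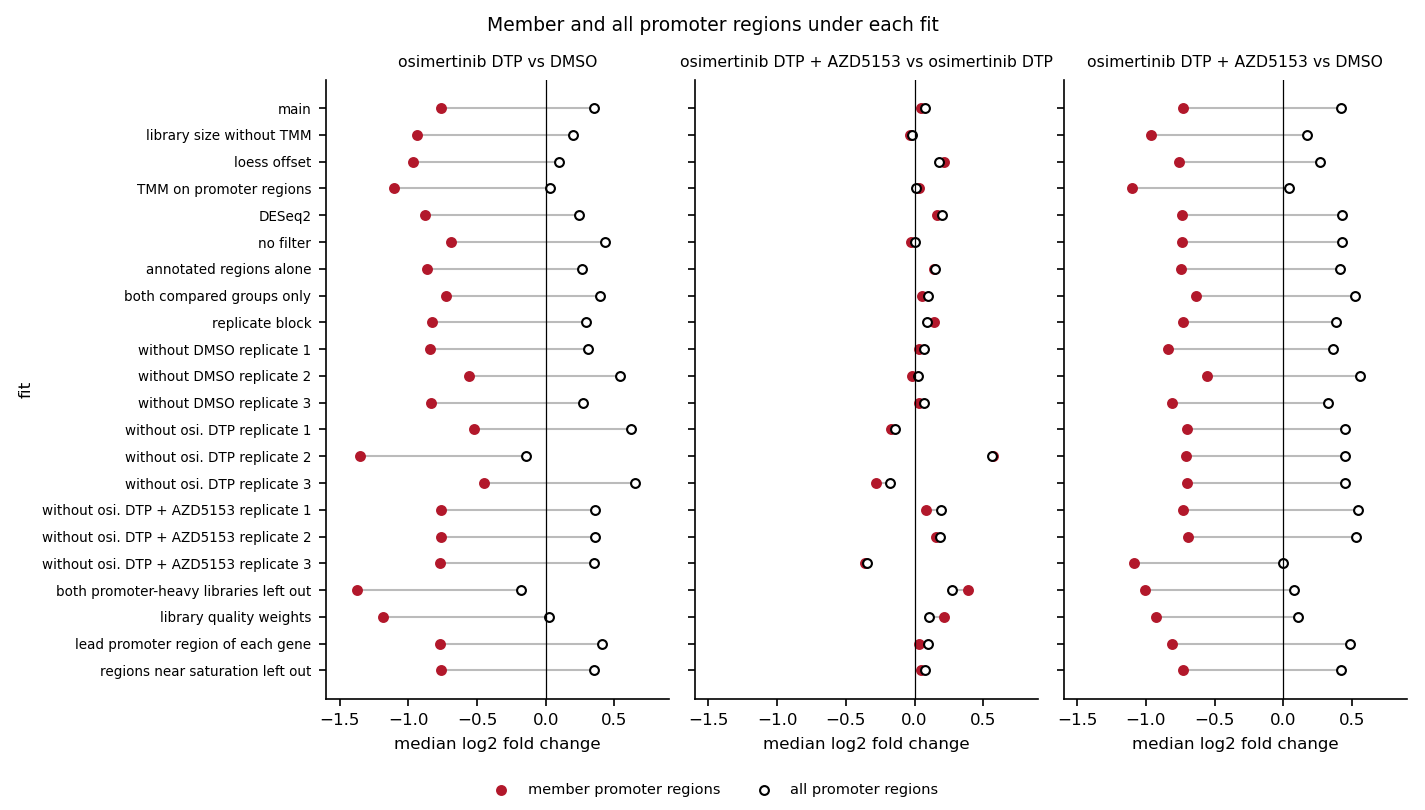
Median log2 fold change of promoter regions under each setting, for the 3 comparisons. Filled points are the promoter regions of cell cycle and replication genes (111, or 56 where only the lead region was used) and open points all promoter regions. In both comparisons with DMSO the filled point lies to the left by 1.03 to 1.29 under every setting, and with AZD5153 against osimertinib DTP the 2 points lie within 0.11 of each other.

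CDC25C, the phosphatase that activates CDK1 at the entry into mitosis, had the only called promoter region (chr5:138331330-138331831, over the start whose sequence is given above). It measured 13.8, 22.8 and 18.7 CPM in the DMSO libraries, 4.40, 4.45 and 2.52 CPM in osimertinib DTP, and 5.51, 7.10 and 3.09 CPM with AZD5153. All treated libraries lay below all DMSO libraries, the promoter-heavy ones among them. It fell by 2.28 ± 0.56 in osimertinib DTP (log2 fold change ± SE, edgeR adjusted p = 0.0169, 0.000479 without osimertinib DTP + AZD5153 replicate 3, and 0.112 without DMSO replicate 2). Its mean percentile was 75.3 ± 6.71 in DMSO and 12 ± 5.90 in osimertinib DTP (SD, n = 3), the widest difference of the 56 genes. A second CDC25C region (chr5:138310850-138311351, intron 4 of 10) also fell, by 2.79 ± 0.69 (adjusted p = 0.0173, 0.141 without DMSO replicate 2). It lay 17531 bp from its assigned TSS, which is another start than the one shown.

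With all 9 libraries, the other cyclins, CDKs and CDC25 phosphatases were not called at their lead regions. With CDC25C the log2 fold changes of the role lay below 0 in 8 of 9 genes. Without both promoter-heavy libraries, the lead regions of CCNA2, CCNB1, CCNB2, CCNE2 and CDC25A passed (edgeR adjusted p = 0.00242, 0.000902, 0.00181, 0.0473 and 0.0137). That of CCNE1 did not (0.0609). CCNB1, the cyclin that partners CDK1 in mitosis, measured 25.4, 33.1 and 28.1 CPM in the DMSO libraries against 11.3, 24.2 and 6.14 CPM in osimertinib DTP (−1.06 ± 0.57, adjusted p = 0.257). The osimertinib DTP values were all lower, with replicate 2 close to DMSO. CCNE1, the cyclin of the entry into S phase, was the highest of the role at 0.11 ± 0.74, with 5.08, 12.9 and 7.64 CPM in the DMSO libraries against 4.21, 20.5 and 3.22 CPM in osimertinib DTP, which overlapped.

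Mitotic kinases and checkpoint genes were low at 6 of 9 lead regions. PLK1, a kinase that starts mitosis and the lowest of the role, measured 19.4, 24.1 and 20.5 CPM in the DMSO libraries, 4.49, 11.4 and 4.53 CPM in osimertinib DTP and 6.81, 5.12 and 10.6 CPM with AZD5153. All 6 treated libraries were below the DMSO range, and the difference of −1.65 ± 0.57 missed the threshold (adjusted p = 0.0682) and passed it without osimertinib DTP + AZD5153 replicate 3 (0.00758). BIRC5, which encodes survivin of the chromosomal passenger complex, and AURKB, the kinase of that complex, stood at −1.46 ± 0.64 and −0.89 ± 0.54. TTK, the spindle checkpoint kinase, was highest at 0.35 ± 0.55, with 4.44, 7.02 and 4.63 CPM in the DMSO libraries against 4.97, 10.9 and 4.83 CPM in osimertinib DTP. With CDC20 and MAD2L1, also of the spindle checkpoint, it made up the 3 genes of the role above 0. The regions of CDC20 and MAD2L1 lay upstream of the start, 213 and 269 bp away.

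Genes of mitotic chromosomes and the spindle were low at all 5 lead regions. TOP2A, the topoisomerase that untangles sister chromatids, was lowest: 27.3, 37.1 and 31.2 CPM in the DMSO libraries, 8.41, 21.2 and 5.14 CPM in osimertinib DTP, and 11.2, 8.61 and 15.1 CPM with AZD5153. The DMSO and treated values did not overlap (−1.47 ± 0.58, adjusted p = 0.112, 0.0224 without osimertinib DTP + AZD5153 replicate 3). MKI67, whose protein Ki-67 is the standard marker of proliferating cells, measured 26.3, 35.6 and 28.5 CPM in the DMSO libraries against 7.36, 26.2 and 2.72 CPM in osimertinib DTP. Replicate 2 lay just under the lowest DMSO library while the other 2 were far below it (−1.32 ± 0.72, adjusted p = 0.266). CENPE, a kinetochore motor, was the nearest to 0 at −0.57 ± 0.61.

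Among the transcription factors, MYBL2, which activates mitotic genes with MuvB, was lowest. Its region inside the gene, 227 bp from the start (chr20:43667341-43667842), measured 8.89, 9.09 and 11.2 CPM in the DMSO libraries, 3.25, 2.23 and 1.71 CPM in osimertinib DTP and 1.10, 0.698 and 4.64 CPM with AZD5153. No treated library reached the DMSO range, and the difference of −2.01 ± 0.65 was just over the threshold (adjusted p = 0.0558, 0.00153 without osimertinib DTP + AZD5153 replicate 3). FOXM1, the other activator of mitotic genes, was at −1.30 ± 0.55 and E2F8, a repressor of the E2F family, at −1.44 ± 0.57. E2F3, an activator, was the only lead region of the role above 0, at 0.51 ± 0.67. It measured 60.8 CPM in osimertinib DTP replicate 2 against 22.0 and 11.5 CPM in the other 2 libraries of the group.

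Replication genes followed the same direction at most lead regions. Of 14 genes of origin licensing and of the replicative helicase, 13 lead regions lay below 0, with a median of −0.77. GINS2, a subunit of the helicase complex, was lowest with 5.44, 11.4 and 8.65 CPM in the DMSO libraries against 1.24, 5.57 and 1.11 CPM in osimertinib DTP (−1.71 ± 0.72, adjusted p = 0.137), and the groups overlapped through replicate 2. ORC1, the largest subunit of the origin recognition complex, had no such overlap, with 12.5, 21.2 and 13.9 CPM against 4.40, 8.63 and 3.52 CPM (−1.53 ± 0.55, adjusted p = 0.0807, 0.0116 without osimertinib DTP + AZD5153 replicate 3). CDT1, which loads the helicase, was highest at 0.12 ± 0.68 in its lead region, with 33.1 CPM in replicate 2 against 9.75 and 5.94 CPM in the other osimertinib DTP libraries, and stood at −0.89 without both promoter-heavy libraries. A second CDT1 promoter region over another start (chr16:88804117-88804618) stood at −1.92, with an SE of 0.72 and an adjusted p of 0.0957. MCM6, a helicase subunit whose window holds the most E2F letters of those shown, stood at −0.39 ± 0.73. By rank its lead region was lower in treatment, with a wide spread. The mean percentile was 67.1 ± 6.97 in DMSO, 34.4 ± 24.8 in osimertinib DTP and 48.5 ± 16.7 with AZD5153 (SD, n = 3).

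Polymerases and the clamp had the median nearest to 0, at −0.27. PCNA, the sliding clamp, was lowest at −0.72 ± 0.52 and POLD1, a polymerase delta subunit, highest at 0.15 ± 0.64. RFC4, a clamp loader subunit, was among the promoters of highest rank in every group, at percentile 96.6 ± 1.27 in DMSO and 90.7 ± 2.04 in osimertinib DTP (SD, n = 3). In nucleotide synthesis, TK1 was lowest with 7.71, 16.8 and 12.3 CPM in the DMSO libraries against 2.1, 6.96 and 2.32 CPM in osimertinib DTP (−1.70 ± 0.63, adjusted p = 0.0882), all of them lower. RRM1, the large subunit of ribonucleotide reductase, was highest at −0.38 ± 0.54. The 8 lead regions above 0 in this comparison (CCNE1, CDC20, CDT1, E2F3, MAD2L1, POLD1, RFC4 and TTK) lay between −1.17 and −0.05 without both promoter-heavy libraries. BRCA1, the one DNA repair gene, measured 11.1, 20 and 14.5 CPM in the DMSO libraries against 3.35, 8.49 and 3.63 CPM in osimertinib DTP, with no overlap (−1.57 ± 0.56, adjusted p = 0.0805).

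**Figure D3:**
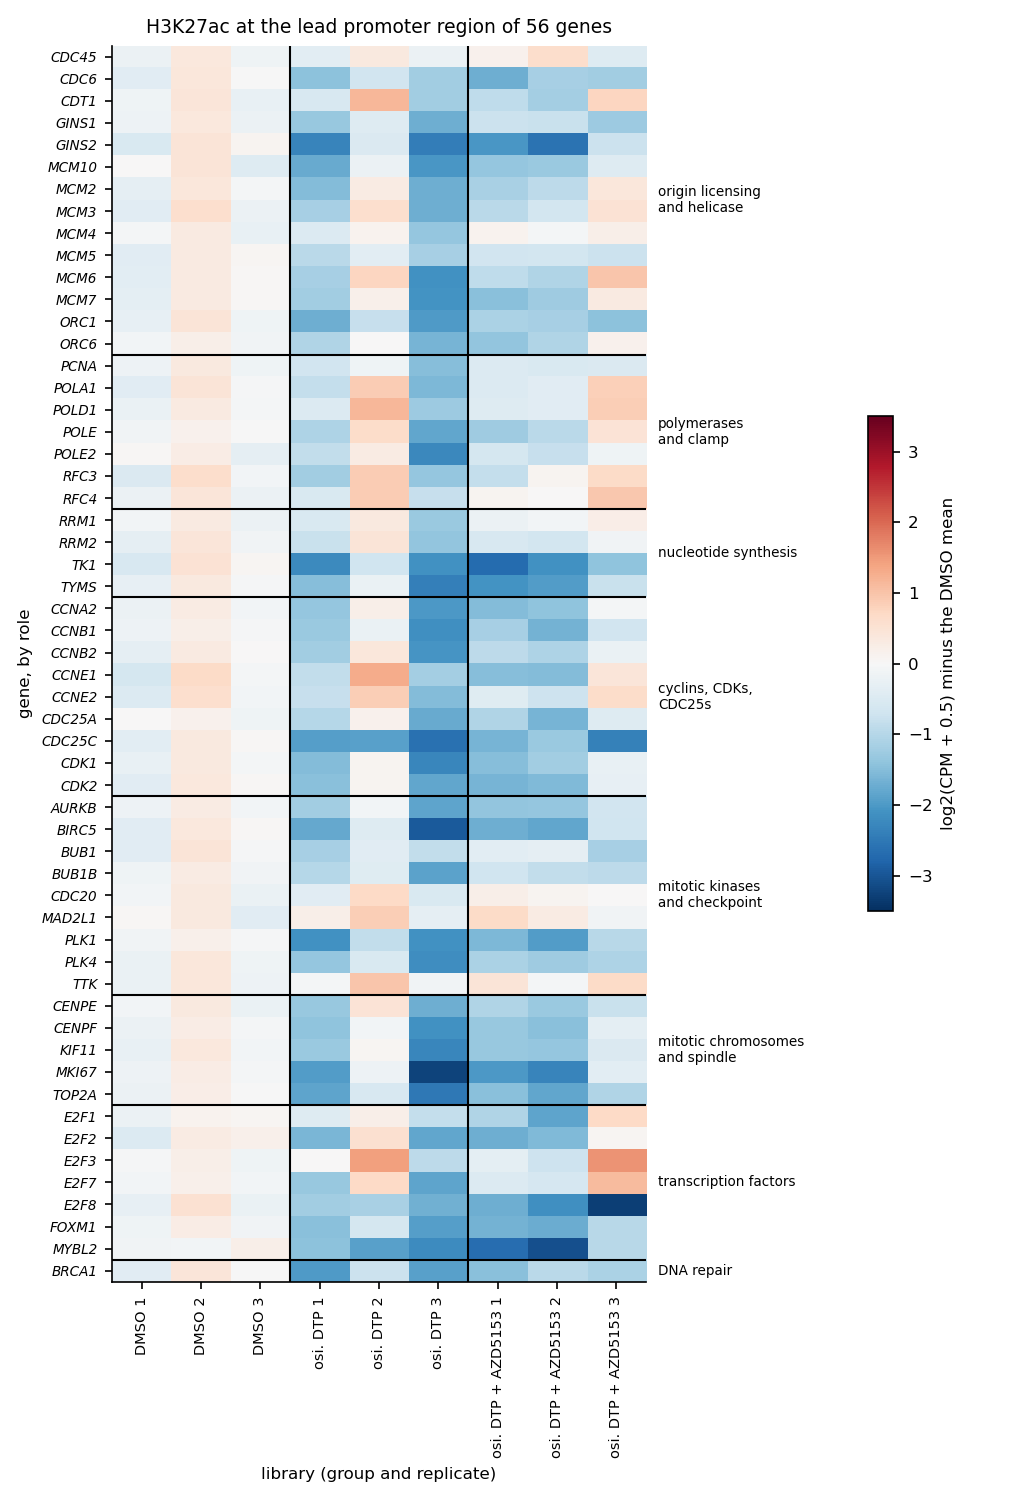
H3K27ac at the lead promoter region of 56 genes, ordered by role (rows) in the 9 libraries (columns). Colour is log2(CPM + 0.5) minus the mean of the 3 DMSO libraries, blue lower and red higher. Osimertinib DTP replicate 2 and osimertinib DTP + AZD5153 replicate 3 are paler or redder than their replicates at most genes, while CDC25C, E2F8 and MYBL2 are blue in all 6 treated libraries.

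Values were also set out by where a promoter region lay relative to the start. In osimertinib DTP against DMSO the median log2 fold change was −0.57 in 28 regions upstream of a TSS, −0.86 in 65 regions over one and −1.29 in 18 regions downstream, while the same classes of all promoter regions stood at 0.26, 0.40 and 0.34. In some genes the upstream region and the region over a start belong to different starts, so the next values are no contrast at a single start. Among genes that had both kinds, the upstream region was above the region over a start in 17 of 23 (73.9%), against 37.9% of 3393 genes. PLK1 is an example: its region 133 bp upstream measured 6.31, 10.7 and 5.14 CPM in osimertinib DTP and 9.34, 13.9 and 11.8 CPM in DMSO, which overlapped (−0.66 ± 0.53). Some of the upstream regions lie in the body of another gene. That of CDC25C, which had the widest difference (2.84), lies in FAM53C and belongs to another start than its region over a start. That of CDC20 lies in CDC20-DT and that of BUB1 in LOC105373554. Motifs were set beside the change at genes with a RefSeq window that overlaps the lead region. The median was −0.97 in 10 genes with a CHR (−2.28 to 0.02) and −0.72 in 27 without it (−1.71 to 0.15). For CCAAT boxes it was −0.89 in 27 genes with and −0.59 in 10 without, and for E2F sites −0.63 in 14 genes with and −0.89 in 23 without.

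Away from promoters, regions assigned to these genes were called in both directions. Of 48 non-promoter regions, 10 were higher and 4 lower in osimertinib DTP, together 29.2% against 20.6% of all non-promoter regions, and the median was 0.25 against −0.06. Assignment is to the nearest gene in the table and does not show that a region acts on that gene. The highest was in intron 30 of 32 of POLA1, the catalytic subunit of DNA polymerase alpha (chrX:24870426-24870927). The TSS assigned to this region, 57596 bp away, is not the start of the POLA1 promoter window. The region measured 0.181, 0.310 and 0.302 CPM in DMSO, from 2, 3 and 3 counts, and 4.97, 9.05 and 10.9 CPM in osimertinib DTP and 7.11, 11.4 and 1.16 CPM with AZD5153. With so few counts in DMSO its fold change depends on the prior count. It rose by 4.91 ± 0.83 (adjusted p = 0.00371), the only one of the 15 calls that held without any single library. A neighbouring region of the same intron rose by 3.00 ± 0.67.

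Regions on either side of CCNE1 rose. The upstream one (chr19:29799115-29799616, distance to the TSS −12375 bp) measured 0.272, 0.206 and 0.704 CPM in the DMSO libraries, 4.11, 3.76 and 5.14 CPM in osimertinib DTP and 6.91, 6.28 and 3.67 CPM with AZD5153. Both treated groups lay above DMSO and overlapped each other, and the rise in osimertinib DTP was 3.42 ± 0.66 (adjusted p = 0.00574, 0.0609 without DMSO replicate 2). The downstream one (chr19:29843303-29843804) rose by 2.84 ± 0.72 and was highest, at 20.5 CPM, in promoter-heavy replicate 2. Further rises were at 2 regions of MCM10 (2.64 ± 0.69 and 2.63 ± 0.67), 2 in intron 8 of MCM2 (2.12 ± 0.60 and 1.85 ± 0.58), 1 upstream of E2F3 (2.28 ± 0.68) and 1 of CDC6 (2.21 ± 0.62) that lies in the 3′ UTR of the neighbouring gene WIPF2. With the replicate number as a block, the lower MCM2 region and the E2F3 region no longer passed (adjusted p = 0.0584 and 0.0568).

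Falls outside promoters were seen at CENPE, CDC25A and MCM5 besides CDC25C. In intron 24 of 46 of CENPE (chr4:103151479-103151980) the values were 6.08, 10.0 and 11.2 CPM in the DMSO libraries against 2.77, 1.25 and 0.906 CPM in osimertinib DTP, with no overlap (a fall by 2.45 ± 0.74, adjusted p = 0.0433). The 3′ UTR region of CDC25A, the phosphatase of the entry into S phase, fell by 2.36 ± 0.64 (adjusted p = 0.0270), and a region 34674 bp from the TSS of MCM5 by 2.29 ± 0.59 (adjusted p = 0.0202). Each of these 3 calls was lost in some fit without a single library, with adjusted p up to 0.196, 0.117 and 0.125.

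**Figure D4:**
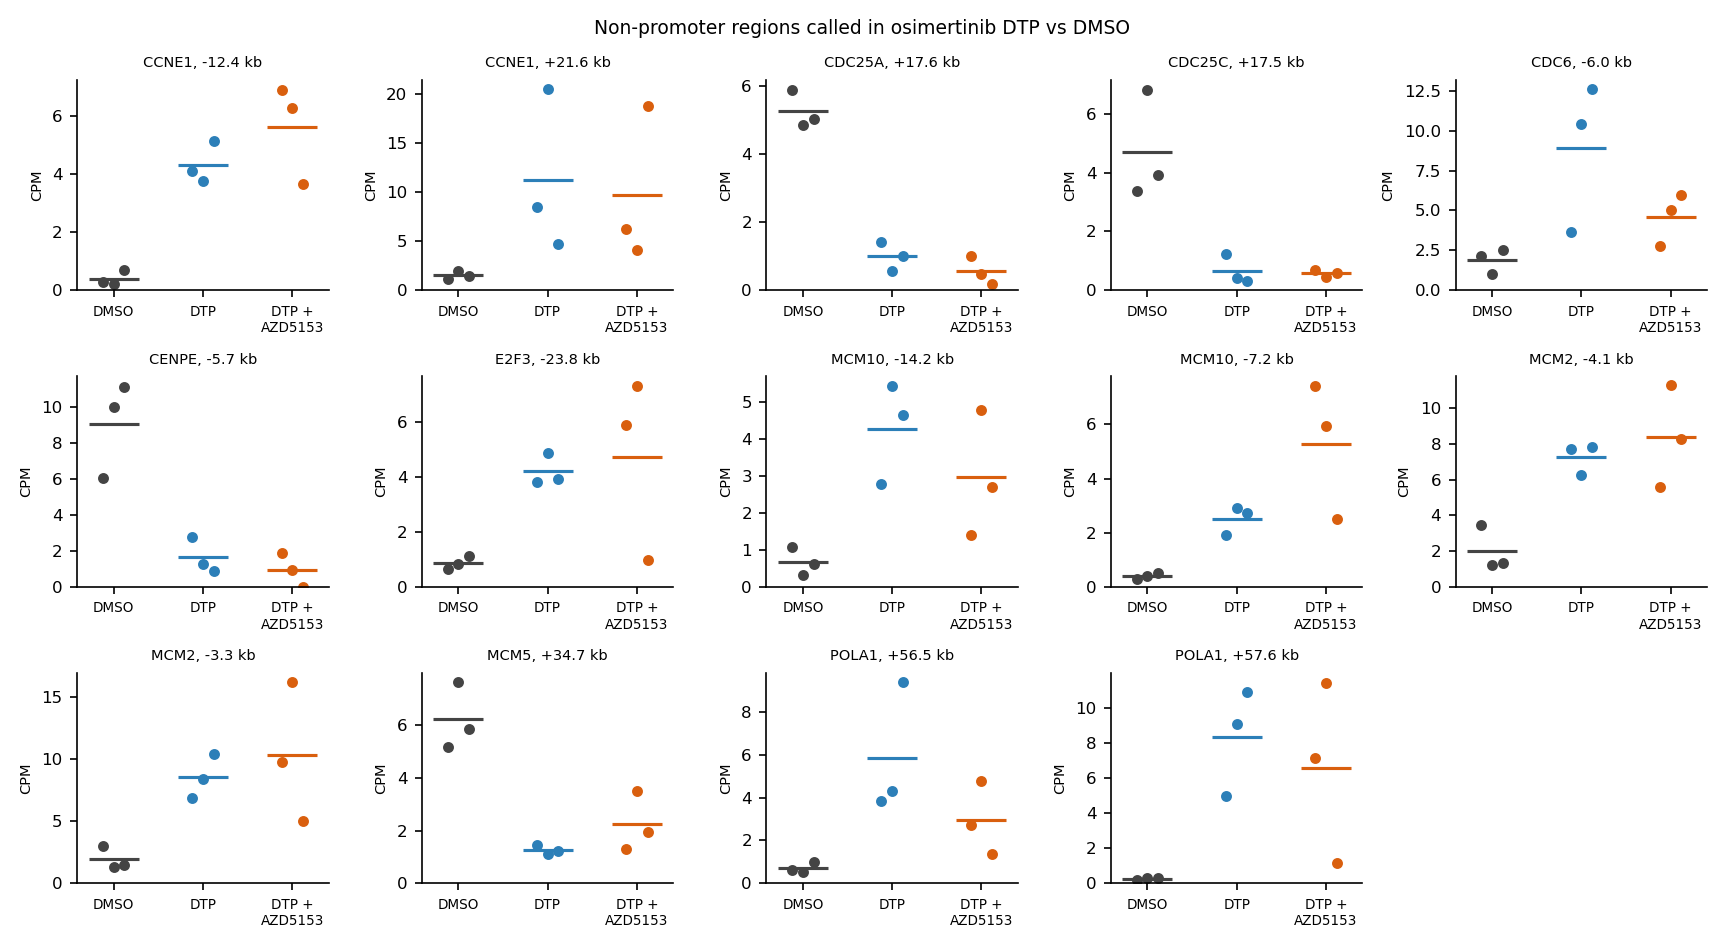
H3K27ac in CPM at the 14 non-promoter regions called in osimertinib DTP against DMSO, titled by gene and distance from the TSS. Points are libraries and lines the mean of 3; DTP stands for osimertinib DTP. The 10 higher regions are near 0 to 3.45 CPM in DMSO, and the 4 lower ones run from 3.36 to 11.2 CPM there.

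The second comparison sets persister cells given AZD5153 for the last 3 days against those kept in osimertinib for 24 days. If osimertinib was stopped in those 3 days, its absence and AZD5153 cannot be told apart. None of the 166 regions was called by edgeR in osimertinib DTP + AZD5153 against osimertinib DTP, where 0.0% of all regions were, and DESeq2 called none of them either. Without adjustment 4 regions (2.41%) had p under 0.05, where 4.44% of all regions did, and these were looked up after their values were seen: 1 near CDC25A (−1.72), 1 at an inner start of CDK2 (−1.24), 1 near PLK1 (−1.44) and 1 upstream of E2F7 (1.80). The median of the promoter regions was 0.05 against 0.08 for all, the middle 50% ran from −0.21 to 0.22, and the SE was 0.59 in the median. By role, the lowest and highest lead regions were CDT1 (−0.35) and MCM4 (0.56) in licensing, POLD1 (−0.02) and RFC4 (0.37) among polymerases, and TK1 (−0.56) and RRM1 (0.35) in nucleotide synthesis. They were CCNE1 (−0.84) and CDC25C (0.48) among cyclins and phosphatases, AURKB (−0.23) and BUB1 (0.20) among mitotic kinases, and CENPE (−0.54) and TOP2A (0.01) among chromosome genes. Transcription factors ran from −0.99 ± 0.58 at E2F8 to 0.65 ± 0.67 at E2F7, both repressors of the E2F family. The AZD5153 libraries measured 15.4, 14.3 and 47.2 CPM at E2F7, and only replicate 3 of them was above the highest osimertinib DTP library (35.2 CPM). Without both promoter-heavy libraries, POLD1, AURKB and CENPE stood above 0, at 0.48, 0.18 and 0.42. The role medians of the lead regions lay between −0.24 in nucleotide synthesis and 0.31 at BRCA1. By rank 5 promoter regions (4.5%) were higher and 0 lower in all AZD5153 libraries, against 5.2% and 3.14% of all promoter regions. In CPM 0 were higher and 3 (2.7%) lower, where 535 and 593 of all 24296 promoter regions were. These counts are small and near those of all promoter regions, so no direction is read from them.

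The third comparison sets the AZD5153 group against the same DMSO libraries as the first, so it is no independent repeat. It called 27 regions (16.3%), 10 higher and 17 lower, where 18.1% of all regions were called. Of the promoter regions 9 were lower (8.11%) and 0 higher, against 3.18% and 5.32% of all promoter regions, and the median was −0.73 against 0.42. All AZD5153 libraries lay below all DMSO libraries in CPM at 47 (42.3%), against 9.51% of all promoter regions. Without osimertinib DTP + AZD5153 replicate 3 there were 67 calls, where 35.7% of all regions were called, with 42 promoter regions lower (37.8%) against 9.45% of all. The split higher to lower was 7 to 30 without TMM and 3 to 23 with TMM taken from promoter regions, where 6.06% and 9.59%, and 2.95% and 5.15%, of all regions were called higher and lower.

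The 9 called promoter regions belong to 8 genes. Of the 26 calls named in this comparison, at promoters and elsewhere, 5 held without any single library. The calls at BUB1 and CDC25C, for example, were lost without DMSO replicate 2 (edgeR adjusted p = 0.194 and 0.135). E2F8 had 2, the first with 14.4, 25.7 and 15.1 CPM in the DMSO libraries, 7.36, 7.79 and 5.24 CPM in osimertinib DTP and 5.11, 3.61 and 1.35 CPM with AZD5153. The 3 groups did not overlap, and the region fell by 2.43 ± 0.59 against DMSO (adjusted p = 0.0106). The second E2F8 region fell by 2.32 ± 0.62. TK1 fell by 2.26 ± 0.65, with 1.40, 2.33 and 4.06 CPM against 7.71 CPM or more in DMSO, and MYBL2 by 2.24 ± 0.67.

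In nucleotide synthesis TK1 was joined by RRM2, the small subunit of ribonucleotide reductase, and TYMS, thymidylate synthase. The RRM2 region (chr2:10123636-10124137) lay 465 bp from its assigned TSS, which is not the start of the RRM2 sequence shown. This region measured 6.98, 5.58 and 6.54 CPM in DMSO and 1.70, 0.582 and 1.74 CPM with AZD5153. It was low in all 3 libraries (a fall by 2.25 ± 0.61, adjusted p = 0.0179) and the lead region of RRM2 stood at −0.47 ± 0.54. The called TYMS region (chr18:657153-657654) measured 7.53, 12.9 and 7.84 CPM against 3.01, 2.09 and 2.90 CPM (a fall by 1.82 ± 0.57, adjusted p = 0.0342). CDC25C, BUB1, a spindle checkpoint kinase, and TOP2A, at a region 774 bp from its assigned TSS, made up the rest, with falls by 1.80 ± 0.55, 1.90 ± 0.65 and 1.78 ± 0.60. The called BUB1 region is not the lead region of BUB1, which stood at −0.63 ± 0.52 (edgeR adjusted p = 0.442) with overlapping groups. The called BUB1 region no longer passed with the replicate number as a block (adjusted p = 0.0744). Among lead regions that were not called, TTK, E2F3, RFC4 and CDC45, a helicase subunit, were highest in their roles at 0.39, 0.54, 0.38 and 0.15. RRM1, CCNE2 and CENPF were highest in theirs at −0.03, −0.13 and −0.99, and GINS2, POLE2 and PLK1 lowest at −1.87, −0.56 and −1.51. Without osimertinib DTP + AZD5153 replicate 3, E2F3 stood at −0.55.

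**Figure D5:**
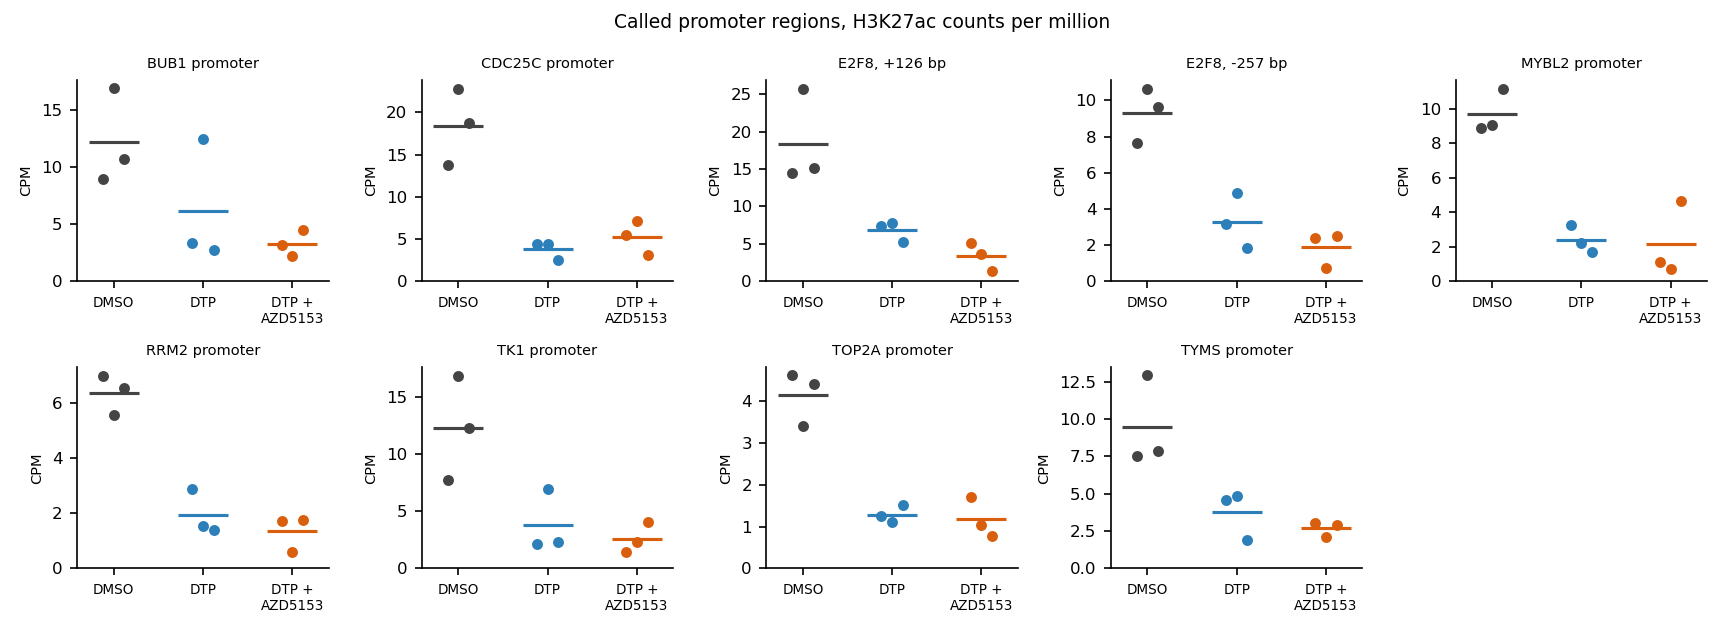
H3K27ac in CPM at the 9 promoter regions called in osimertinib DTP + AZD5153 against DMSO, 1 of which, CDC25C, was also called in osimertinib DTP against DMSO. Points are libraries and lines the mean of 3; the E2F8 panels give the distance from the TSS. The AZD5153 libraries lie below every DMSO library in all 9 panels.

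Outside promoters, 10 regions were higher and 8 lower with AZD5153 against DMSO (37.5%, against 30.4% of all non-promoter regions). CCNE1, POLA1, MCM10, MCM2 and E2F3 rose at regions already named, and a region at −24119 bp from the TSS of PLK4, the kinase of centriole duplication, rose by 2.5 ± 0.64 with 13.9, 12.6 and 2.51 CPM against 2.18 CPM or less in DMSO. At the 3′ end of CDC25A 3 neighbouring regions fell by 2.38 to 3.13, the 3′ UTR region and those just downstream of it. A pair upstream of CENPF, a kinetochore protein, fell by 1.97 ± 0.62 and 2.29 ± 0.71. The intronic region of CDC25C fell by 2.98 ± 0.71, and those in introns 24 and 25 of CENPE by 3.15 ± 0.78 and 1.98 ± 0.66. In osimertinib DTP + AZD5153 replicate 3 the non-promoter rises were the smallest of the group at POLA1 (1.16 CPM), E2F3 (0.966 CPM) and PLK4 (2.51 CPM).

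Of 66 further genes of the same pathways, listed by function, 61 had regions. Their 122 promoter regions were called higher 0 times and lower 7 times in osimertinib DTP against DMSO (5.74%, near the 4.63% of all promoter regions). Of their 48 non-promoter regions, 0 were called higher and 5 lower, where 20.6% of all non-promoter regions were called. By size of change over all their regions, the first called were not promoter regions. They were non-promoter regions of MAD1L1, a spindle checkpoint protein (−2.95 ± 0.82), and GINS3 of the helicase (−2.90 ± 0.77). A region 1 to 3 kb from a TSS of ANLN, the cytokinesis protein anillin, followed (−2.79 ± 0.68). Promoter regions came next, of ESPL1, or separase (−2.14 ± 0.63), and the mitotic kinesins KIF2C (−1.95 ± 0.58) and KIF4A (−1.91 ± 0.60). With AZD5153 against DMSO the 122 promoter regions were called higher 1 time, at MAD1L1 (2.39 ± 0.65), and lower 9 times (8.2%, near the 8.5% of all promoter regions). The medians were −0.27 and −0.26, between those of the 58 genes and of all promoter regions.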

How the data were processed

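H3K27ac ChIP-seq of H1975 cells was compared between 3 groups of 3 libraries, grouped by the labels. Per the submitters' processing notes the tools were BWA 0.7.17, MACS2 2.2.6, featureCounts 2.0.0 and ChIPseeker 1.29.1, and the build hg38. Filters and peak thresholds are not given in the sources used here. The authors deposited raw counts per region for all libraries and the input, and peak lists with fold enrichment (a ratio) and −log10 p and q values, of which overlap, width and fold were used.

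Counts of all 169637 regions were filtered (filterByExpr, minimum count 10), leaving 157919, scaled by TMM and tested by edgeR's quasi-likelihood test (edgeR 4.0.16, R 4.3.3) over the 9 libraries, with Benjamini-Hochberg adjustment at 0.05. SE is the absolute log2 fold change over the root of F, and CPM is scaled to the TMM-normalised total. The fit was tested on simulated data. The p-values measure the spread between the deposited samples. Alternatives were loess offsets, other scalings and filters, DESeq2 1.42.0, a replicate block and leaving out each library, and, chosen after seeing the data, leaving out both promoter-heavy libraries, library quality weights (limma 3.58.1) and ranks. Deviations of same-numbered libraries correlated at 0.334, 0.355 and 0.324 for osimertinib DTP and DMSO. With AZD5153 at least 1 same-numbered correlation was at or below 0.0262 in each comparison. Libraries with different numbers were not compared and the labels give no pairing, so these values do not show that the numbers mark pairs.

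The members and gene lists were chosen with earlier results of these data known. Named are the called regions (with more than 25, those with the 25 largest changes, and after its values were seen the TOP2A region outside these), the lowest and highest lead promoter region per role, and up to 6 called genes of the further list. Other genes are named as examples, chosen after their values were seen. Motifs were searched in RefSeq promoter windows.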

Additional observations from a re-analysis of the deposited data

How the results depend on the processing

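In osimertinib DTP against DMSO, 15 regions were called with all libraries. Leaving out 1 library gave 1 (DMSO replicate 2) to 58 (osimertinib DTP + AZD5153 replicate 3), with 7 and 2 without DMSO replicates 1 and 3, 8, 4 and 3 without osimertinib DTP replicates 1, 2 and 3, and 23 without osimertinib DTP + AZD5153 replicate 2. Calls numbered 27 with a loess offset, 5 with TMM on promoter regions, 44 with DESeq2, 30 with annotated regions alone, 54 with both compared groups only, 2 at an adjusted p of 0.01, 97 without both promoter-heavy libraries (58.4%, and 26.9% of all regions) and 93 with library quality weights (56%, and 31.9%). The promoter median ran from −1.35 to −0.45 over the fits without 1 library and was −1.37 without both promoter-heavy ones, and the non-promoter median ran from 0.044 to 0.51. With AZD5153 against DMSO, 27 calls became 5 (without DMSO replicate 2) to 67 (without osimertinib DTP + AZD5153 replicate 3), with 14 and 9 without DMSO replicates 1 and 3 and 15 and 17 without osimertinib DTP + AZD5153 replicates 1 and 2. Calls were 14 with both compared groups only, 7 at an adjusted p of 0.01, 86 without both promoter-heavy libraries (51.8%, and 42.6% of all regions) and 89 with quality weights (53.6%, and 48.7%). The promoter median was −1.10 with TMM on promoter regions and ran from −1.09 to −0.55 without 1 library, and the non-promoter median from 0.04 to 0.62. With AZD5153 against osimertinib DTP, 1 region was called without both promoter-heavy libraries (0.602%, and 2.11% of all regions) and 3 with quality weights (1.81%, and 3.67%), and 0 without any 1 library, where the medians ran from −0.36 to 0.57 at promoters and −0.18 to 0.22 elsewhere. With the replicate number as a block, 18 regions were called in osimertinib DTP and 26 with AZD5153 against DMSO. This block lost 2 named calls in the former and 3 in the latter: BUB1, MCM10 (adjusted p = 0.0717) and POLA1 (0.0526). The cause of these changes was not tested.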

Other observations

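The table assigned no region to AURKA, a mitotic kinase, or KIF23, a kinesin of cytokinesis. The region next to the start of AURKA (chr20:56392266-56392767) is assigned to CSTF1 and stood at −0.09 ± 0.50 on the log2 scale in osimertinib DTP against DMSO (edgeR adjusted p = 0.94). An unannotated region inside AURKA (chr20:56375538-56376039) held 34, 16 and 22 counts in the DMSO libraries, 15, 6 and 10 in those of osimertinib DTP, and 4, 3 and 2 with AZD5153. It was lower with AZD5153 than in DMSO, by −2.57 ± 0.76 (adjusted p = 0.0268). At the start of KIF23, 3 regions are assigned to LOC145694, and the first (chr15:69414478-69414979) stood at 0.73 ± 0.63 in osimertinib DTP against DMSO (adjusted p = 0.525). The other two stood at 1.37 ± 0.59 and 1.52 ± 0.59 (adjusted p = 0.142 and 0.104, and 0.0159 and 0.0172 without osimertinib DTP + AZD5153 replicate 3). An unannotated region inside KIF23 (chr15:69422255-69422756) was higher with AZD5153 than in DMSO, by 2.11 ± 0.72 (adjusted p = 0.0493).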
